A study of Rattus norvegicus with 6 samples.

Results

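The microRNAs (miRNAs) of the miR-23/27/24 clusters, 7 of the 649 mature miRNAs listed, were followed in small RNA libraries of rat cortical neurons. They were chosen by name, and all 7 names were found. The a-locus encodes rno-miR-23a-3p, rno-miR-27a-3p and the 5p strand rno-miR-24-2-5p, and the b-locus encodes rno-miR-23b-3p, rno-miR-27b-3p and the 5p strand rno-miR-24-1-5p. The seventh, rno-miR-24-3p, is the same molecule from both loci. The neurons came from Sprague-Dawley embryos of embryonic day 18 and were kept for 7 days in vitro (DIV) per the sample labels, while a figure legend of the study gives another number of days. Brain-derived neurotrophic factor (BDNF, 100 ng/ml) was given for 20 min to 3 cultures, numbered as replicates 1 to 3, and 3 control cultures received the vehicle, 0.1% BSA. All cultures had been given the antimitotic fluorodeoxyuridine, which limits dividing non-neuronal cells. Libraries held between 10374120 and 12533029 counts, of which the 7 miRNAs together took between 0.491% and 0.613%.

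A miRNA is cut from a hairpin precursor by Dicer, and usually 1 arm, the guide, is loaded onto Argonaute while the other is mostly degraded. Each locus carries a miR-23, a miR-27 and a miR-24 hairpin on 1 primary transcript. The clusters are known from endothelial, muscle and blood cells, and in the nervous system miR-23 has been linked to astrocytes and miR-23 and miR-27 to the repression of pro-apoptotic genes in neurons. MiR-27 also represses PPARG, a regulator of fat cell formation, and miR-24 represses cell cycle genes.

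The guide strands are shown because the paralogs are nearly the same sequence, which bears on how reads can be told apart. All 7 matched by name to RefSeq (build GRCr8), and capitals mark the seed, bases 2 to 8, which pairs with target mRNAs.
rno-miR-23a-3p: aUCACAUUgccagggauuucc
rno-miR-23b-3p: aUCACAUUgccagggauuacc
rno-miR-27a-3p: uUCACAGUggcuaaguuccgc
rno-miR-27b-3p: uUCACAGUggcuaaguucugc
rno-miR-24-3p: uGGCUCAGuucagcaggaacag
rno-miR-24-2-5p: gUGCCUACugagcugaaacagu
rno-miR-24-1-5p: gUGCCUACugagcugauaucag

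Counted from 1 at the 5′ end, miR-23a-3p and miR-23b-3p differed by the single substitution U19A (the first base belongs to the a-locus product), and miR-27a-3p and miR-27b-3p by C19U. Both positions are the third base from the 3′ end of 21. The aligner accepted reads trimmed by up to 3 bases and 1 mismatch, so a read that ended before base 19 carried nothing to tell the paralogs apart, and how such reads were assigned is not given in the sources used here. The 5p strands of miR-24 shared their first 16 bases and differed at 5 of 22 positions. The seeds of miR-23 and miR-27 differed at 1 base, U7G in the order miR-23b-3p to miR-27b-3p. No other miRNA among the 583 listed with a RefSeq sequence had any of these 4 seeds at bases 2 to 8. The miR-24-3p seed stood at base 1 of miR-222-5p. The miR-27 seed also stood at base 1 of miR-128-3p, a neuron-enriched miRNA, shown here with these 7 letters in capitals.
rno-miR-128-3p: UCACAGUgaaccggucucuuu

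On GRCr8 the b-locus hairpins lay at chr17:1818669-1819482 on the minus strand, 814 bases from end to end, in the order Mir23b, Mir27b, Mir24-1 along the transcript. All 3 fell inside the bounds of Aopep, a gene for an aminopeptidase on the same strand, and Mir24-1 also inside those of Fancc, a Fanconi anaemia gene on the opposite strand. The a-locus hairpins lay at chr19:40859455-40859843 on the minus strand, 389 bases in all and overlapping no other gene of the RefSeq table. Whether the hairpins are exonic or intronic was not analysed here.

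MiR-27b-3p was the most abundant of the 7 and took between 64.2% and 72.9% of their counts. Its level was 3885, 3786 and 3637 normalized RPM in control replicates 1 to 3 and 3821, 3697 and 3738 in BDNF replicates 1 to 3, where RPM are reads scaled to a library of 1000000 counts and normalized RPM are further divided by the library's TMM scaling factor. It ranked 32nd of 649 by its control mean, and the levels of both conditions overlapped.
MiR-24-3p, which both loci supply, came next with 642, 814 and 868 normalized RPM in control and 669, 743 and 823 in BDNF samples. MiR-23b-3p followed with 515, 689 and 796 in control and 516, 554 and 603 in BDNF samples. The control levels of miR-24-3p (775 ± 118, SD, n = 3) and miR-23b-3p (667 ± 141.7, SD, n = 3) overlapped, although miR-24-3p was the higher within each of the 6 libraries.
MiR-23a-3p had 166, 239 and 263 normalized RPM in control and 171, 179 and 212 in BDNF samples. MiR-27a-3p had 117, 108 and 102 in control and 106, 109 and 102 in BDNF samples, below the lowest library of miR-23a-3p. The miR-24 5p strands were far rarer, at 3.27 ± 0.64 normalized RPM (SD, n = 3) for miR-24-2-5p and 1.25 ± 0.28 (SD, n = 3) for miR-24-1-5p in control samples. All 7 are 21 or 22 bases long, and a read spans the whole molecule, so levels were not divided by length. For scale, miR-128-3p, with the shifted miR-27 seed, had 78594 ± 5091 normalized RPM in control samples (SD, n = 3).

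**Figure D1:**
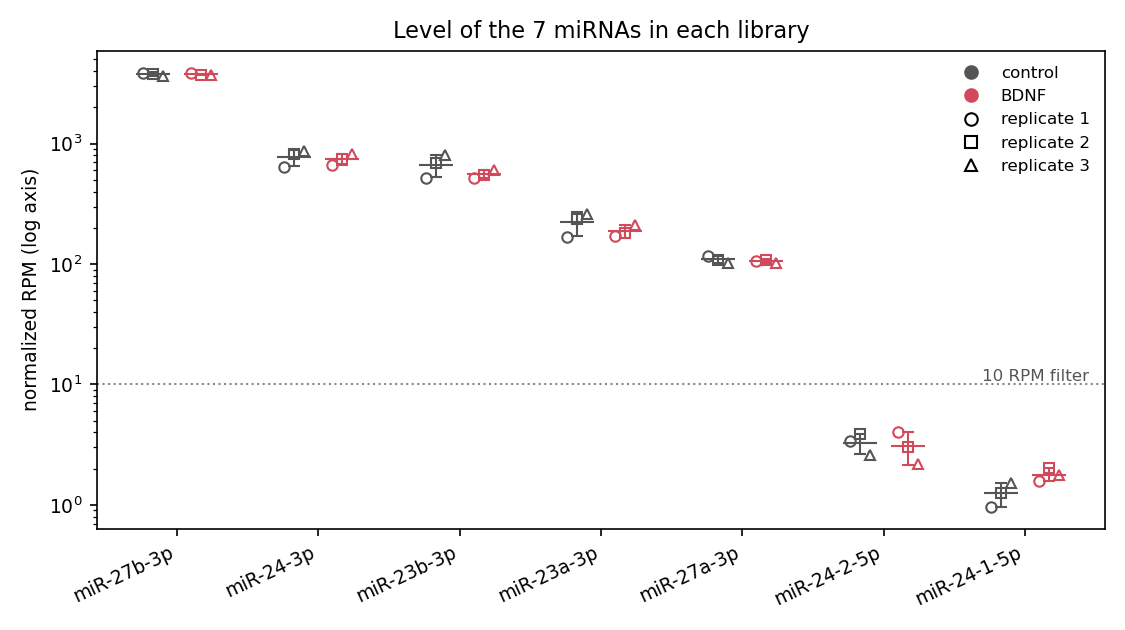
Normalized RPM (log axis) of the 7 miRNAs in each library, control in grey and BDNF in red, with horizontal bars for the mean, error bars for the SD (n = 3) and symbols for the replicate number. The levels run from 3885 for miR-27b-3p in control replicate 1 down to 0.964 for miR-24-1-5p in the same library, and both miR-24 5p strands lie below the 10 RPM filter.

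The guide strands of the b-locus exceeded those of the a-locus in all 6 libraries, but by very different factors for miR-23 and miR-27. MiR-27b-3p had 33.1, 35.0 and 35.8 times the count of miR-27a-3p in the 3 control libraries and 35.9, 34.0 and 36.6 times in the 3 BDNF libraries. MiR-23b-3p had 3.10, 2.89 and 3.03 times the count of miR-23a-3p in control and 3.02, 3.09 and 2.84 times in BDNF samples. The ranges of these factors, 33.1 to 36.6 and 2.84 to 3.10, did not overlap. As log2 ratios of a-locus to b-locus counts, miR-27 stood at -5.11 ± 0.06 (SD, n = 3) and miR-23 at -1.59 ± 0.05 (SD, n = 3) in control samples. Ratios within a library do not depend on the scaling between libraries. Libraries of the same replicate number may share their source, so no P-value is given for this order.

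Among the rarer 5p strands, those of miR-24 went the other way from the guides. MiR-24-2-5p of the a-locus exceeded miR-24-1-5p of the b-locus in every library, with 35, 46 and 29 reads against 10, 15 and 17 in control and 44, 33 and 28 reads against 17, 22 and 23 in BDNF replicates 1 to 3. The a-locus share of these reads was 77.8%, 75.4% and 63.0% in control samples, with exact 95% binomial intervals of 62.9 to 88.8%, 62.7 to 85.5% and 47.5 to 76.8%. In BDNF samples it was 72.1%, 60.0% and 54.9%, with intervals of 59.2 to 82.9%, 45.9 to 73.0% and 40.3 to 68.9%, so that in 3 of the 6 libraries the interval includes equal shares. These intervals cover counting error only.
The 5p strands of miR-27, also below the filter, had the direction of the guides with a smaller factor. MiR-27b-5p had 68, 97 and 77 reads in control and 80, 88 and 87 in BDNF samples. MiR-27a-5p had 40, 45 and 27 reads in control and 39, 39 and 42 in BDNF samples. The b-locus strand was thus 1.70 to 2.85 times as frequent, where the guides of the same hairpins differed by at least 33.1 times. This comparison and the ratios of miR-23 to miR-27 within a locus were chosen after their values were seen and were not tested.
MiR-23b-5p was read only 2 to 7 times per library, and miR-23a-5p was not analysed here.

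**Figure D2:**
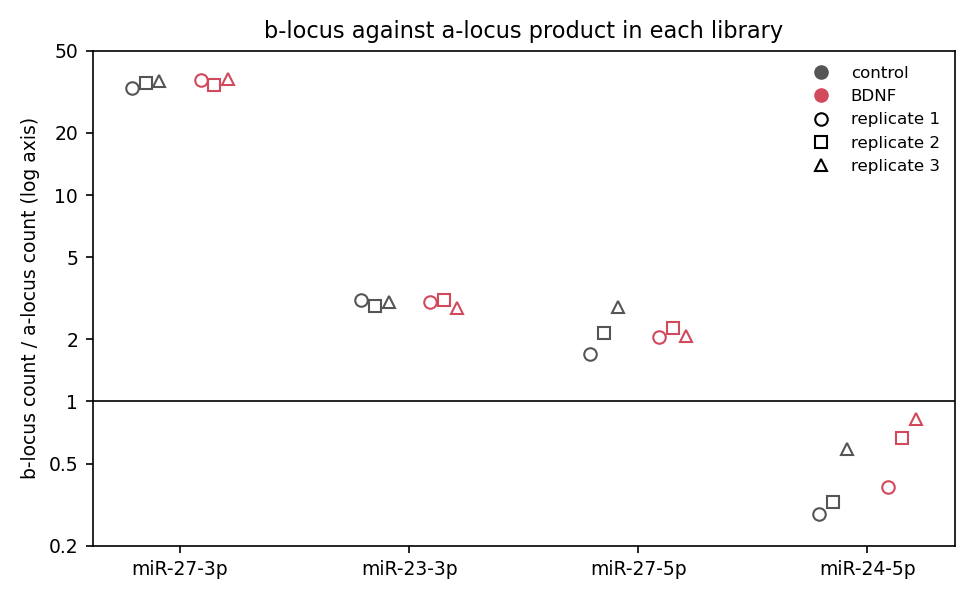
Count of the b-locus product divided by that of the a-locus product in each library (log axis), for the guide strands of miR-27 and miR-23 and for the 5p strands of miR-27 and miR-24; the line marks equal counts. The ratios lie between 33.1 and 36.6 for miR-27-3p, 2.84 and 3.10 for miR-23-3p, 1.70 and 2.85 for miR-27-5p, and 0.286 and 0.821 for miR-24-5p, where the a-locus strand is the more frequent.

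The 3p arm prevailed in the hairpins of miR-23b, miR-27a and miR-27b and in those of miR-24 summed, with a large difference between the miR-27 hairpins. MiR-27a-3p was read 28.7 to 42.2 times for each miR-27a-5p read, and miR-27b-3p 460 to 592 times for each miR-27b-5p read. MiR-24-3p was read 119 to 212 times for each read of both miR-24 5p strands together. Between 1069 and 3029 reads of miR-23b-3p came with each read of its 5p strand, a factor that rests on 2 to 7 reads.
Within a locus, the balance of miR-23 and miR-27 also differed. MiR-27b-3p exceeded miR-23b-3p by 4.57 to 7.54 times, whereas miR-27a-3p was below miR-23a-3p in all 6 libraries, at 0.387 to 0.707 times its count.

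In normalized RPM across the 6 libraries, the miR-23 and miR-27 guides of 1 locus correlated negatively. The paralogs of each family, and miR-24-3p with the miR-23 guides, correlated positively. Over the log2 normalized RPM of the 6 libraries, Pearson's r was 0.98 for miR-23a-3p with miR-23b-3p and 0.75 for miR-27a-3p with miR-27b-3p. For products of 1 locus, r was -0.66 for miR-23a-3p with miR-27a-3p and -0.71 for miR-23b-3p with miR-27b-3p. MiR-24-3p went with miR-23a-3p (r = 0.93) and miR-23b-3p (r = 0.89) and against miR-27a-3p (r = -0.78) and miR-27b-3p (r = -0.81). These values describe 6 points that share replicate numbers in pairs, and reads shared between the paralogs may enter the values for 1 family; their part was not tested.
Replicate 1 was the lowest for both miR-23 guides and for miR-24-3p in each condition, and replicate 3 the highest. In normalized RPM, miR-27a-3p was lowest in replicate 3 in each condition. In RPM without the TMM factor, miR-23b-3p was highest in replicate 3 of control (861) and BDNF (654) samples. MiR-27b-3p was highest in the same libraries on that scale (3932 and 4055). The order of the miR-27b-3p libraries thus depends on the scaling, and the negative values of r may depend on it too. Without the TMM factor, r was not computed.
The coefficient of variation between control samples was 22.6% for miR-23a-3p, 21.3% for miR-23b-3p and 15.2% for miR-24-3p, against a median of 13.4% over the 336 miRNAs tested. It was 7.33% for miR-27a-3p and 3.30% for miR-27b-3p, and 314 of the 336 varied more than miR-27b-3p. In BDNF samples the coefficient was 11.7% for miR-23a-3p, 7.83% for miR-23b-3p and 1.69% for miR-27b-3p, against a median of 11.9%.

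**Figure D3:**
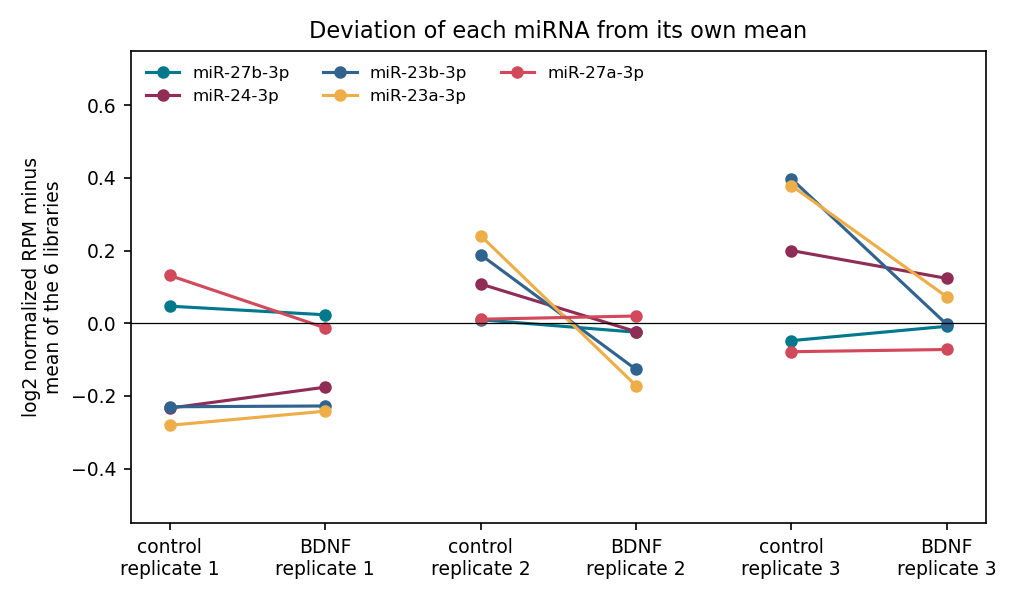
Log2 normalized RPM of the 5 guide strands in each library minus their own mean over the 6 libraries, with lines joining the control and the BDNF sample of 1 replicate number. The miR-23 guides and miR-24-3p lie below their mean in replicate 1, and control replicate 3 holds their highest values, while miR-27b-3p stays within 3637 to 3885 normalized RPM.

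Other miRNAs followed these patterns over the 6 libraries. Nearest to the summed a-locus guides (miR-23a-3p and miR-27a-3p) were miR-421-3p (r = 0.985), miR-384-5p (r = 0.982) and miR-652-3p (r = 0.981). Nearest to the summed b-locus guides were miR-496-3p (r = 0.971), miR-410-3p (r = 0.916) and miR-30b-5p (r = 0.908). Nearest to miR-24-3p were miR-181a-5p (r = 0.991), miR-181b-5p (r = 0.990) and miR-191a-5p (r = 0.984). They are the highest of the tested miRNAs over 6 libraries, picked for their r, and serve as a description only.

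Because the clusters are linked to glia and vessels as well as neurons, miRNAs known for these cell types were measured beside them. All 9 listed neuronal miRNAs, such as miR-124-3p and miR-128-3p, were present, and their sum ranged from 104001 to 109593 normalized RPM in control and from 109006 to 118755 in BDNF samples. Most of each sum was miR-128-3p. The 4 glial miRNAs summed to between 5196 and 7381 in control and between 5211 and 8117 in BDNF samples, nearly all of it miR-21-5p. MiR-21-5p is made by many cell types, and the oligodendrocyte miRNAs miR-219a-5p and miR-338-3p stayed between 5.62 and 26.3 normalized RPM. The 4 vascular miRNAs, led by miR-126a-3p of endothelium and miR-143-3p of smooth muscle, summed to between 136.97 and 211 normalized RPM over all libraries, and miR-145-5p, also of smooth muscle, was at most 0.446. Of the microglial and blood list, 4 of 5 miRNAs were analysed, and they summed to at most 9.50 normalized RPM. Of these lists, 15 miRNAs passed the filter of 10 RPM, and none had an unadjusted P-value below 0.05 between conditions in edgeR's quasi-likelihood test, against 2.98% of all 336 tested. With the replicate number as a block, 2 of the 9 neuronal, 1 of the 3 vascular and 0 of the 3 glial had an unadjusted P-value below 0.05 and a lower level in BDNF samples, against 12.8% of the 336, and none of them passed after adjustment in edgeR.
The a-locus share of the summed miR-23 and miR-27 guides was 6.06%, 7.19% and 7.59% in control replicates 1 to 3 and 6.003%, 6.35% and 6.75% in BDNF replicates 1 to 3. The glial sums were 7381, 6980 and 5196 normalized RPM in control replicates 1 to 3 and 8117, 7294 and 5211 in BDNF replicates 1 to 3. The summed share also moves with the balance of miR-23 to miR-27, because the a-locus part is larger for miR-23. The part of the cell mixture in these shares was not tested, and in bulk cultures fewer cells of a type and less RNA per cell cannot be told apart.

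BDNF was then compared with control for the 5 guide strands, which passed the filter of a mean of 10 RPM in one condition, and for the 2 miR-24 5p strands, which did not. With edgeR's quasi-likelihood test over 336 miRNAs, none of the 5 guides passed the threshold. None had an unadjusted P-value below 0.05, against 10 of 336 or 2.98% of all miRNAs tested, and none of the 336, 0.0%, had an adjusted P-value below 0.05 (DESeq2 gave 12 unadjusted and 0 adjusted). The median log2 fold change of the 5 was -0.06, against 0.00 over all 336. For none of the 5 did all BDNF samples lie on one side of all control samples, which held for 7.14% of those tested.

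The miR-23 guides had the largest differences of the 5. MiR-23b-3p had a log2 fold change of -0.26 (standard error, SE, 0.17, unadjusted P = 0.17, adjusted P = 0.999) in edgeR. The change of miR-23a-3p was -0.25 (SE 0.19, unadjusted P = 0.24, adjusted P = 0.999) in edgeR.
Their BDNF levels lay within the range of the control levels, and control replicate 1 was the lowest of the 6 libraries for both. In samples of the same replicate number, the ratio of BDNF to control was 1.00, 0.80 and 0.76 for miR-23b-3p and 1.03, 0.75 and 0.81 for miR-23a-3p in replicates 1 to 3. The difference was thus carried by replicates 2 and 3. In these, the glial sum went from 6980 to 7294 and from 5196 to 5211 normalized RPM, and the neuronal sum from 109593 to 118755 and from 104001 to 114806; their part was not tested. The direction of the miR-23 guides in replicate 1 depended on the scaling. In RPM without the TMM factor, the ratios in replicate 1 were 0.94 for miR-23b-3p and 0.96 for miR-23a-3p, so that both, with miR-24-3p, were lower in all 3 pairs, as were 30.1% of the 336. With TMM none of the 5 was lower or higher in all 3 pairs, against 23.8% lower and 16.1% higher among the 336.

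The replicate numbers paired the samples, and with the number as a block both miR-23 guides passed the unadjusted threshold. In this replicate block, miR-23b-3p had a log2 fold change of -0.24 (SE 0.09, unadjusted P = 0.025, adjusted P = 0.18) in edgeR. MiR-23a-3p had -0.23 (SE 0.09, unadjusted P = 0.042, adjusted P = 0.23) in edgeR, and did not pass the unadjusted threshold with the block when the filter was lowered to 1 RPM (-0.21, unadjusted P = 0.052). These were 2 of the 5 guides, against 12.8% of all miRNAs tested that were lower and 7.74% that were higher with the block. None of the 336, 0.0%, passed the adjusted threshold, with 69 below the unadjusted one. The paralogs are not independent counts here, and summed to a single miR-23-3p they gave -0.24 (SE 0.09, unadjusted P = 0.027, adjusted P = 0.19) in edgeR with the block.
The size of this difference depended on single libraries, most on control replicates 1 and 3. Leaving out any other single library gave a log2 fold change of -0.346 to -0.188 for miR-23a-3p and -0.318 to -0.209 for miR-23b-3p. Without control replicate 1 the log2 fold change in the fit without the block was -0.39 for both (unadjusted P-values 0.034 for miR-23a-3p and 0.020 for miR-23b-3p, adjusted 0.49 and 0.42 in edgeR), and without control replicate 3 it was -0.10 for both, with unadjusted P-values of 0.65 and 0.57.

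The miR-27 guides and miR-24-3p had smaller differences. MiR-27b-3p had a log2 fold change of -0.01 (SE 0.08) and miR-27a-3p one of -0.05 (SE 0.12), with unadjusted P-values of 0.94 and 0.71 in edgeR. Upper-quartile, RLE and DESeq2 scaling turned the sign of miR-27b-3p, to at most 0.02, as did the 1 RPM filter. The pair ratios of miR-27b-3p were 0.98, 0.98 and 1.03 and those of miR-27a-3p 0.90, 1.01 and 1.00. MiR-24-3p had a log2 fold change of -0.06 (SE 0.14), with an unadjusted P-value of 0.70 in edgeR and pair ratios of 1.04, 0.91 and 0.95. The block gave these 3 unadjusted P-values of 0.92, 0.59 and 0.48 in edgeR.
The balance of miR-23 to miR-27 within the b-locus was 0.133, 0.182 and 0.219 in control replicates 1 to 3 and 0.135, 0.150 and 0.161 in BDNF replicates 1 to 3. It was lower with BDNF in replicates 2 and 3 and not in replicate 1.

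**Figure D4:**
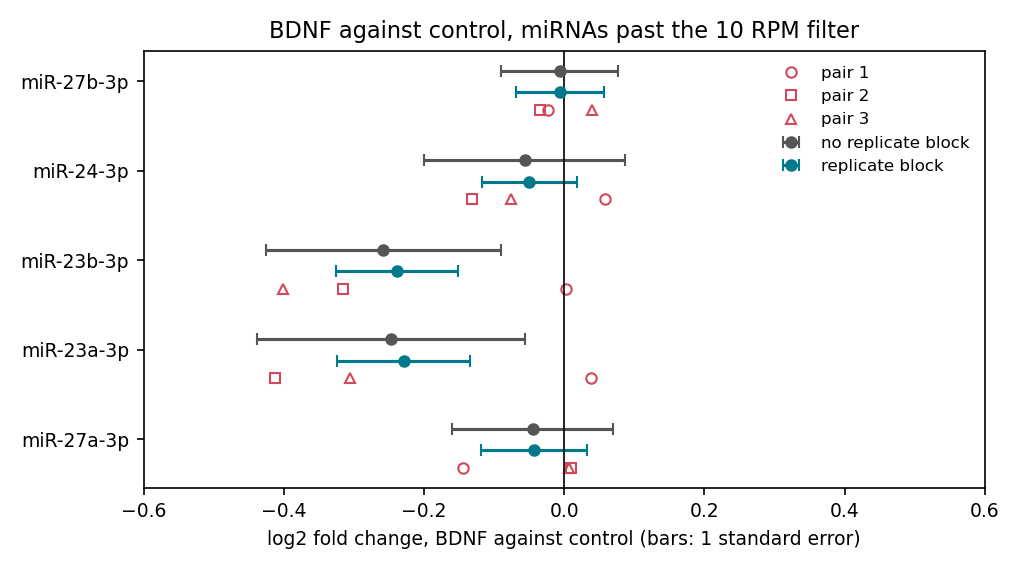
Log2 fold change of BDNF against control for the 5 guide strands (bars, 1 standard error), without the replicate block in grey and with it in blue, and the log2 ratio of each pair of the same replicate number as open red symbols. The miR-23 guides lie at -0.26 to -0.23 with pair 1 close to 0, and the other 3 lie between -0.06 and -0.01.

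The miR-24 5p strands lay below the filter. MiR-24-1-5p had a mean of 1.25 normalized RPM in control and 1.79 in BDNF samples. Its level was 0.964, 1.25 and 1.52 normalized RPM in control and 1.57, 2.01 and 1.78 in BDNF samples, from the 10 to 23 reads given above. The groups did not overlap on this scale, which held for 7.14% of the 336 tested miRNAs, a set without miR-24-1-5p. The share among miRNAs with so few reads was not computed. The groups did overlap in RPM without the TMM factor, where the highest control was 1.64 and the lowest BDNF sample 1.46. The exact Poisson 95% interval of the lowest count, 10, ran from 4.80 to 18.4 and that of the highest, 23, from 14.6 to 34.5. The log2 ratio of the means was 0.52, and with the filter lowered to a mean of 1 RPM, edgeR gave a log2 fold change of 0.53 (SE 0.27, unadjusted P = 0.088, adjusted P = 0.99). In samples of the same replicate number the ratio of BDNF to control was 1.63, 1.60 and 1.18. MiR-24-1-5p was thus higher in all 3 pairs, as were 16.1% of the 336 tested. With this filter and the replicate block together, a fit added after seeing the data, edgeR gave 0.53 (SE 0.30, unadjusted P = 0.11, adjusted P = 0.45). MiR-24-2-5p had 3.38, 3.85 and 2.59 normalized RPM in control and 4.06, 3.02 and 2.17 in BDNF samples, with overlapping groups and a log2 ratio of the means of -0.09.

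The balance between the loci was compared by tests that could not reach 0.05 with these numbers of samples, so that a shift after BDNF can be neither shown nor dismissed. The log2 a-locus to b-locus ratio differed between BDNF and control by 0.01 for miR-23, -0.04 for miR-27, -0.13 for both guides summed and -0.65 for the miR-24 5p strands. The exact two-sided permutation test gave P = 0.7, 0.5, 0.3 and 0.2 for these 4 ratios (0.7, 0.667, 0.6 and 0.6 after Benjamini-Hochberg adjustment), where 0.1 is the smallest value possible with 3 samples against 3. The summed guides and the miR-24 5p strands each had a lower ratio in all 3 pairs. For this, the exact sign-flip permutation test gives P = 0.25, the smallest value that 3 pairs allow. Within the families the pairs went both ways, with miR-23a/23b lower in 1 of 3 and miR-27a/27b in 2 of 3. The summed ratio also moves with the balance of miR-23 to miR-27, because the a-locus part is larger for miR-23. The part of this balance was not tested.
The 5p/3p ratios were compared in the same way, with the same smallest possible P-values. The log2 5p/3p ratio changed by 0.30 for miR-23b, 0.13 for miR-27a, 0.05 for miR-27b and 0.15 for miR-24, with exact two-sided permutation P = 1, 0.9, 0.7 and 0.5, and 1 for all 4 after adjustment. The control samples alone spread by SDs of 0.82, 0.30, 0.17 and 0.27 in these ratios (n = 3). The miR-24 ratio was higher in all 3 pairs, by 0.32, 0.11 and 0.02, with an exact sign-flip permutation P = 0.25. The other 3 ratios differed in direction between pairs.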

How the data were processed

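Small RNA was sequenced from 3 control and 3 BDNF cultures. The authors removed the 3′ adapter and low-quality reads, discarded reads under 15 bases and matched the rest to rat miRBase release 21 with Miraligner (1 mismatch, 3 bases of trimming). The deposited values are raw counts, 1 per mature miRNA name and sample, and how isomiRs (reads with shifted ends) and reads matching several miRNAs entered them is not given in the sources used here. Tool versions are not given in the sources used here.

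Counts were tested with edgeR 4.0.16 in R 4.3.3 (TMM factors, library size the sum of all counts, quasi-likelihood test across the 336 miRNAs with a mean of 10 RPM in one condition, Benjamini-Hochberg adjustment over all of them). The standard error is the log2 fold change divided by the square root of F. The procedure was tested on simulated data. Ratios of counts used no pseudocount and exact permutation tests (SciPy 1.17.1). The main edgeR test and the exact two-sided permutation tests did not use the replicate numbers. Same-numbered samples were treated as paired in the replicate block, the pair ratios and the sign-flip tests. The numbers come from the sample titles. Deviations from the group means also correlated in each pair (r = 0.80, 0.48 and 0.89 across 336 miRNAs). Replicates of a condition differed beyond sampling noise (chi-square per degree of freedom at least 220). They are biological replicates per the methods.

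Alternatives were DESeq2 1.42.0, RLE, upper-quartile and library-size scaling, other filters, the replicate block, summed paralogs, a pseudocount of 1 and leaving out each sample. The members and lists were chosen with earlier results of these data known. Named miRNAs are the members, their opposite arms, the lists, miRNAs sharing a seed and the 3 nearest in pattern to each of 3 profiles. Sequences and positions are from RefSeq (GRCr8), and the build used by the authors is not given in the sources used here.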

Additional observations from a re-analysis of the deposited data

How the results depend on the processing

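None of the 5 guides passed the unadjusted threshold under any scaling or filter tried (DESeq2, RLE, upper quartile, library size only, no filter, a filter at 1 RPM). The number of miRNAs past that threshold was 10 (5 lower, 5 higher), 6 with library size only (4 lower, 2 higher), 8 with upper-quartile scaling (2 lower, 6 higher), 69 with the replicate block (43 lower, 26 higher), 70 with the block and the 1 RPM filter together (36 lower, 34 higher, added after seeing the data) and 3 to 32 when single samples were left out (32 without control replicate 1, 3 without control replicate 2, 6 without control replicate 3 and 5 without BDNF replicate 2); none passed the adjusted threshold under any of these. The replicate block moved miR-23a-3p (log2 fold change -0.229) and miR-23b-3p (-0.239) past the unadjusted threshold, as it did for the paralogs summed (-0.236, an alternative added after seeing the data), and changed no other call among the guides. With the block and the 1 RPM filter together, miR-23b-3p stayed past it (-0.222) and miR-23a-3p did not (-0.211, unadjusted P = 0.052 in edgeR). Leaving out single samples gave -0.390 to -0.098 for miR-23a-3p, -0.385 to -0.099 for miR-23b-3p, -0.083 to 0.038 for miR-27a-3p, -0.024 to 0.042 for miR-27b-3p, -0.147 to 0.045 for miR-24-3p and -0.335 to 0.114 for miR-24-2-5p. MiR-27b-3p turned to 0.0058 with DESeq2 and with RLE, 0.024 with upper-quartile scaling and 0.011 with the 1 RPM filter, with or without the block. With single samples left out, the BDNF difference in log2 ratio ranged from -0.024 to 0.041 for miR-23a/23b, -0.043 to 0.235 for miR-27a 5p/3p, -0.035 to 0.138 for miR-27b 5p/3p and -0.038 to 0.367 for miR-24 5p/3p, each with a change of sign. Without one, it ranged from 0.00087 to 0.770 for miR-23b 5p/3p, -0.232 to -0.057 for the summed guides, -0.068 to -0.0038 for miR-27a/27b and -0.965 to -0.420 for the miR-24 5p strands. The cause of these changes was not tested. The mean a-locus to b-locus ratios kept their sign under each alternative tried. Depth limits the 5p strands, which had 2 to 97 reads per library.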
